A study of Mus musculus with 10 samples.

Results

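The messenger RNA levels of 9 Polycomb genes, Ezh1, Ezh2, Suz12, Eed, Ring1, Rnf2, Bmi1, Phc1 and Phc2, were followed in mouse embryonic fibroblasts on 10 Affymetrix 3' expression arrays. The genes were matched by the symbol that the platform annotation gives each probe set, the unit of the array that reads a transcript. They had 22 probe sets among the 22690 of the array, and all 9 genes were found under their current symbols. Of the 22 probe sets, 16 were bright enough to be tested, at least 1 for each gene, and 6 were too dim (a typical signal, averaged on the log scale, under about 96.7). Fibroblasts are connective tissue cells, here grown from mouse embryos, and 4 of the 5 groups lacked their own G9a, a histone H3 lysine methyltransferase encoded by Ehmt2. The delta cells of these groups carried only an empty vector. The WT cells carried wild-type G9a with a FLAG tag, the K165A cells FLAG-G9a with that substitution, and the H1093K cells FLAG-G9a with a substitution in the catalytic domain. The fifth group is titled only as deleted, and the sources used here do not say what vector, if any, it carried. Each group had 2 arrays. How many cell lines or clones lie behind these groups is not given either, so the p-values measure only the spread between arrays, which may be technical.

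Polycomb proteins keep genes silent through 2 kinds of complex. Polycomb repressive complex 2 (PRC2) methylates lysine 27 of histone H3 with Ezh2 or its relative Ezh1 as the enzyme, and needs Suz12 and Eed to work. PRC1 attaches ubiquitin to histone H2A with Rnf2 (RING1B) or Ring1 (RING1A) as the enzyme, Bmi1 as a partner that raises its activity, and the polyhomeotic proteins Phc1 and Phc2, which join complexes to one another. In fibroblasts Polycomb proteins are best known for holding down the Cdkn2a locus, which arrests growth, and for keeping Hox genes in the pattern of the body region the cells came from.

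The arrays labelled deleted stood apart from the other 4 groups before any Polycomb gene was considered. Ehmt2 read 1678 and 1750 on them, which goes against the label, and 473 and 415 in delta, 676 and 620 in WT, 704 and 725 in K165A and 461 and 494 in H1093K. The H1093K arrays thus read Ehmt2 close to the empty vector, while WT and K165A lay above both. What part of Ehmt2 this probe set reads, against the deleted part, is not known here. Of 11 fibroblast markers, 8 passed the filter. The summed signal of all 11 overlapped between groups (47530 to 62990), but most of it came from Vim, Col1a2, Fn1 and Col1a1. By the limma test described below, 2 of the 8 were higher and 2 lower in WT than in delta. The counts were the same in K165A, and 0 passed in H1093K (2 at an unadjusted p under 0.05). Among all tested genes 13.2%, 12.7% and 0.969% passed. Thy1 read 1711 and 2028 in delta, 931 and 1047 in WT, 977 and 1002 in K165A, and 1676 and 1744 in H1093K. Pdgfrb went the other way, at 645 and 680, 1519 and 1270, 1416 and 1245, and 929 and 801 in that order. Single markers moved either way: Pdgfra and Dcn read 1628 to 1743 and 1357 to 1519 on the arrays labelled deleted and at most 81.7 and 54.0 elsewhere, S100a4 read 1151 and 1255 there and 4725 to 7178 elsewhere, and Vim was lowest there (7952 and 8871 against 9945 to 15818). Lum read at most 53.9 on all arrays. Markers of leukocytes (10 genes, summed signal 649 to 847.2), endothelium (8 genes, 310.7 to 441.1) and pluripotent or germ cells (7 genes, 88.8 to 187.7) were low throughout. Epithelial markers (10 genes) summed to 3874 and 4277 in delta, 2745 and 3036 in H1093K, 1196 and 1330 in WT, 1116 and 1291 in K165A, and 4322 and 4416 in the arrays labelled deleted. Most of it was Krt7 in delta and H1093K, and Krt8 and Krt18 in the arrays labelled deleted, while Epcam stayed at or under 35.9. The part of these keratin and fibroblast marker differences in the results below was not tested. In such bulk RNA, fewer cells of a type and less RNA per cell cannot be told apart.

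Among the 4 groups whose G9a status is given, the clearest change was in Rnf2, and most Polycomb genes did not pass the test. By limma, with p-values adjusted over all 13575 tested probe sets, 1 of the 16 Polycomb probe sets differed among these 4 groups, and 11.6% of all probe sets did. Across the 5 groups it was 7 of 16, for the genes Rnf2, Bmi1, Phc2 and Suz12, and 36.2% of all probe sets. Both shares are near the background, so they are no result about these genes as a list, and the account below is of single genes. Against delta, 2 of the 16 passed in WT (both higher and both Rnf2, where 11.9% of all probe sets passed and 5.42% were higher), and 2 in K165A (Rnf2 and Suz12, both higher, where 11.3% passed and 4.99% were higher). None passed in H1093K (0 of 16 by limma, where 0.818% of all probe sets passed). At an unadjusted p under 0.05 it was 3 of 16, beside 11.8% of all probe sets. In the arrays labelled deleted, 4 were higher and 2 lower than in delta, against 15.6% higher and 17.4% lower among all probe sets (33% in all). Over the 16 probe sets the median log2 difference from delta was 0.15 for WT, 0.17 for K165A, 0.14 for H1093K and 0.17 for the arrays labelled deleted, and the medians over all probe sets lay between -0.01 and 0.00. These comparisons share the same 2 delta arrays.

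**Figure D1:**
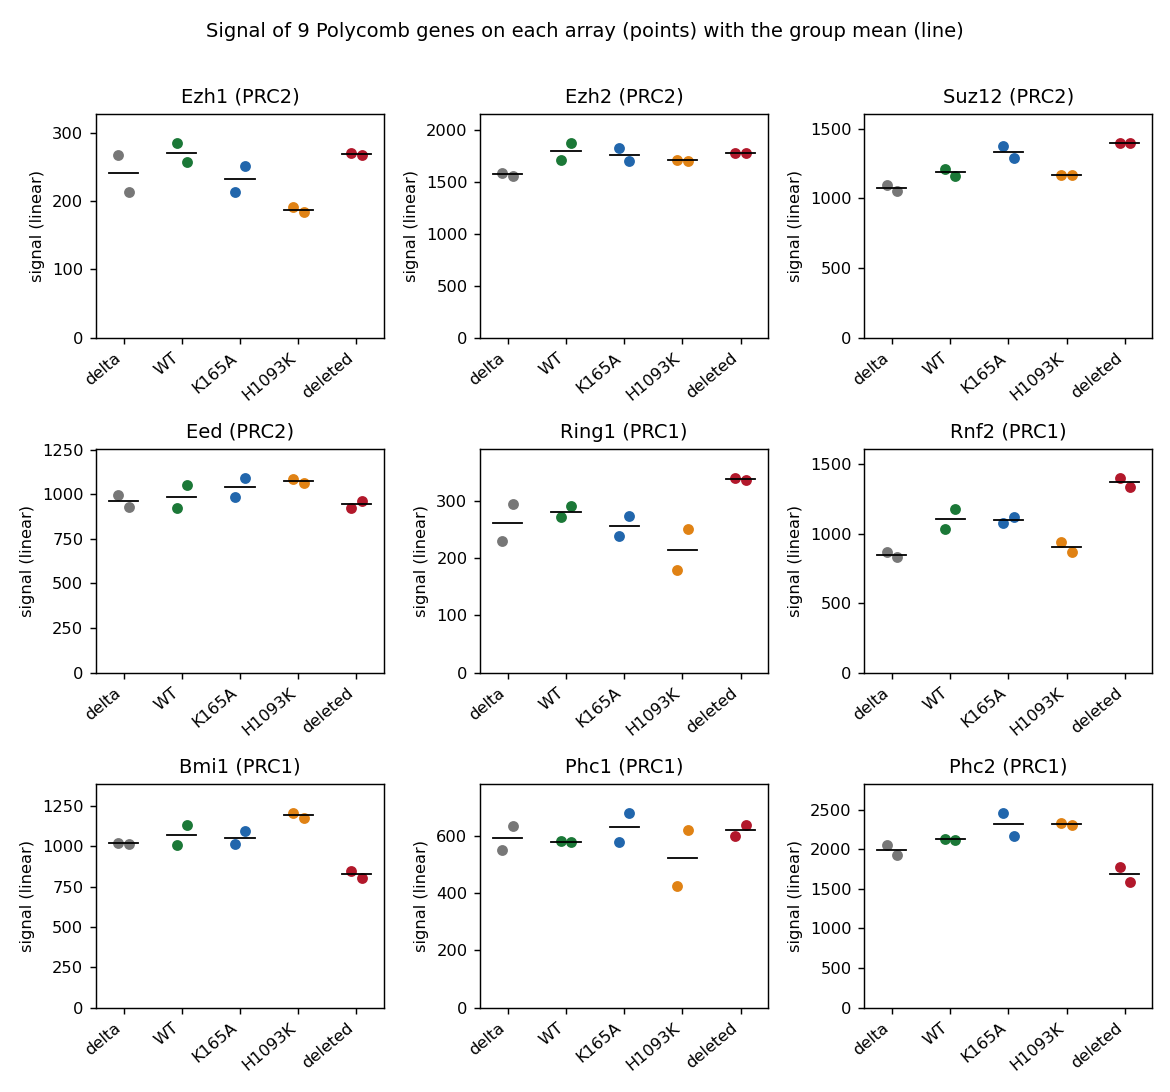
Signal on a linear scale (y axis, from 0) of the brightest probe set of each of the 9 genes, by group (x axis); points are single arrays and lines are the means of 2 arrays. Rnf2 lies between 1033 and 1176 on the WT and K165A arrays and between 829 and 937 on the delta and H1093K arrays.

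Rnf2, the main ubiquitin ligase of PRC1, rose with wild-type G9a and with K165A. Its brighter probe set (1424873_at) read 869 and 829 on the delta arrays, 1033 and 1176 on the WT arrays, 1079 and 1120 on the K165A arrays, 937 and 870 on the H1093K arrays, and 1400 and 1335 on the arrays labelled deleted. All WT, K165A and deleted arrays lay above all delta and H1093K arrays, and the deleted arrays above the rest. The means of 2 arrays were 849 ± 28.6 (SD) for delta, 1105 ± 101 for WT, 1100 ± 29.1 for K165A, 904 ± 46.9 for H1093K and 1368 ± 46.1 for deleted. On the log2(signal + 16) scale the difference from delta was 0.37 ± 0.08 (SE) in WT, a 1.29-fold rise (limma adjusted p = 0.0196), and 0.37 ± 0.08 in K165A (adjusted p = 0.0212). In the arrays labelled deleted it was 0.68 ± 0.08, a 1.60-fold rise (adjusted p = 2.02e-04), which passed under all 20 alternatives run. In H1093K it was 0.09 (95% interval -0.10 to 0.28, adjusted p = 0.768), which did not pass. The WT call ended without delta replicate 1 (0.0566), delta replicate 2 (0.106) or WT replicate 2 (0.13), and with only the arrays compared in the fit (0.0626; range over 21 alternatives 0.00724 to 0.13). The K165A call ended without delta replicate 1 (0.0573), delta replicate 2 (0.114), K165A replicate 1 (0.0663) or K165A replicate 2 (0.102), or with only the arrays compared (0.0696; range 0.00777 to 0.114).

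The other bright Rnf2 probe set (1451519_at) gave a like pattern at lower precision. It read 696 and 624 in delta, 792 and 941 in WT, 811 and 913 in K165A, 812 and 735 in H1093K, and 1038 and 1081 on the arrays labelled deleted. The deleted arrays were again above the rest, the delta arrays were below all others, and here the H1093K arrays overlapped those of WT and K165A. Its difference from delta was 0.38 ± 0.11 in WT (adjusted p = 0.0478), 0.38 ± 0.11 in K165A (adjusted p = 0.0519, not passed), 0.22 ± 0.11 in H1093K (0.461, not passed) and 0.67 ± 0.11 in the arrays labelled deleted (0.00105). The K165A difference passed with a filter at the 60th percentile (0.0491), quantile normalization (0.0351) or the replicate block (0.0228). The WT call of this probe set passed under 8 of 21 alternatives only (0.0207 to 0.254). It ended without delta replicate 1 (0.0723) or 2 (0.219), WT replicate 2 (0.254), K165A replicate 1 (0.0506) or 2 (0.0508), H1093K replicate 1 (0.0587) or 2 (0.0584), or deleted replicate 1 (0.0692) or 2 (0.0696). Over the 10 arrays the pair of probe sets correlated with Pearson's r = 0.958, which is a description of probe sets that share their RNA. The remaining 3 Rnf2 probe sets were too dim to be tested, with signals of 4.88 to 115.

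Taken as 4 arrays against 4, Rnf2 was higher with WT or K165A G9a than with the empty vector or H1093K. Ehmt2 itself read higher on the same WT and K165A arrays, as given above. The form of G9a and the amount of its transcript thus cannot be told apart in this comparison. The log2 difference of 1424873_at was 0.33 ± 0.06 (95% interval 0.19 to 0.46, limma adjusted p = 0.00431), with all 4 arrays of the first set above all 4 of the other, and it passed under all 21 alternatives run (adjusted p 0.00135 to 0.0196). For 1451519_at it was 0.27 ± 0.08 (adjusted p = 0.036), with overlapping arrays, and it passed under 10 of 21 (0.0122 to 0.117). That call ended without delta replicate 2 (0.108), WT replicate 2 (0.117), K165A replicate 2 (0.11), H1093K replicate 1 (0.0505) or 2 (0.114), or deleted replicate 1 (0.0527) or 2 (0.0528). In this comparison 3 of the 16 Polycomb probe sets passed, the other being Suz12 (1420021_s_at, 0.16 ± 0.05, adjusted p = 0.0447), whose call ended when any of the 10 arrays was left out and passed under 5 of 21 alternatives (0.0151 to 0.269). All 3 were higher, beside 8.47% higher and 18.3% in all among the 13575 probe sets. Set against WT alone, H1093K was lower by -0.28 ± 0.08 (-0.47 to -0.10) at 1424873_at, which did not pass (adjusted p = 0.0752) but did after quantile normalization (0.0495; range over 21 alternatives 0.034 to 0.323). Against K165A the difference was as large, with K165A above H1093K by 0.28 ± 0.08 (0.09 to 0.47), and it did not pass (0.0834; range 0.0379 to 0.34). At 1451519_at the same differences were smaller, with overlapping arrays, and did not pass. They were -0.16 ± 0.11 for H1093K against WT (adjusted p = 0.467) and 0.15 ± 0.11 for K165A against H1093K (0.492). The call of the direct tests between the catalytic mutant and the other forms thus depends on the processing at 1424873_at, where its direction did not change, and on the probe set.

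The promoter bases of Rnf2, Suz12 and Bmi1 are shown because these genes moved on the same arrays, the first pair upward and Bmi1 downward in the arrays labelled deleted. Each stretch holds the 250 bases before the start of the gene, 5′ to 3′ on the strand of the gene, from RefSeq on GRCm38.p6. Capitals mark matches on either strand to the GC box GGGCGG, the CCAAT box CCAAT, the E2F letters TTTCCCGC or TTTGGCGC, and the cyclic AMP response element TGACGTCA. The Rnf2 stretch lies at chr1:151500992-151501241 on the minus strand, that of Suz12 at chr11:79992856-79993105 on the plus strand, and that of Bmi1 at chr2:18676768-18677017 on the plus strand.
Rnf2: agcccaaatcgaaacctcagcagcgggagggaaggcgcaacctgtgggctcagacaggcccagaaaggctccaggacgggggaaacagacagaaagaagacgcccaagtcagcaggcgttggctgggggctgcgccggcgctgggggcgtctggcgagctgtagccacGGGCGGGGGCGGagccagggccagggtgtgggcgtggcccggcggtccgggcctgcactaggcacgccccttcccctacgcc
Suz12: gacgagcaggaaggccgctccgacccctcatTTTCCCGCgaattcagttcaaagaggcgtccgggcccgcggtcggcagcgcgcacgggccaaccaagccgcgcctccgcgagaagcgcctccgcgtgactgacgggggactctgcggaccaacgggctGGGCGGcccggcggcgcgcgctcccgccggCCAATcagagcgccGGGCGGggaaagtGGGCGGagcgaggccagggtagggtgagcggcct
Bmi1: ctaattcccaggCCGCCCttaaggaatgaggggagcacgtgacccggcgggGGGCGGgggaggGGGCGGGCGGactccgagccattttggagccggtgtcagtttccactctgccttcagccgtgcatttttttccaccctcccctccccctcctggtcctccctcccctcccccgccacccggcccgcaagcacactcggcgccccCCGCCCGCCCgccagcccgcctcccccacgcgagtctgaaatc
All 3 are rich in CpG, with 20 in Rnf2, 37 in Suz12 and 21 in Bmi1 against a median of 6 over the 32851 promoters in the table. The GC box occurs 2 times in Rnf2, 3 times in Suz12 and 6 times in Bmi1 (some overlapping), and 32.7% of all promoters hold it. Suz12 also has 1 match to TTTCCCGC, found in 0.895% of all promoters, and 1 to CCAAT, found in 33.8%. TTTGGCGC (0.417% of all promoters) and TGACGTCA (1.55%) have no match in these windows. A match is a description of the letters, not of binding.

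**Figure D2:**
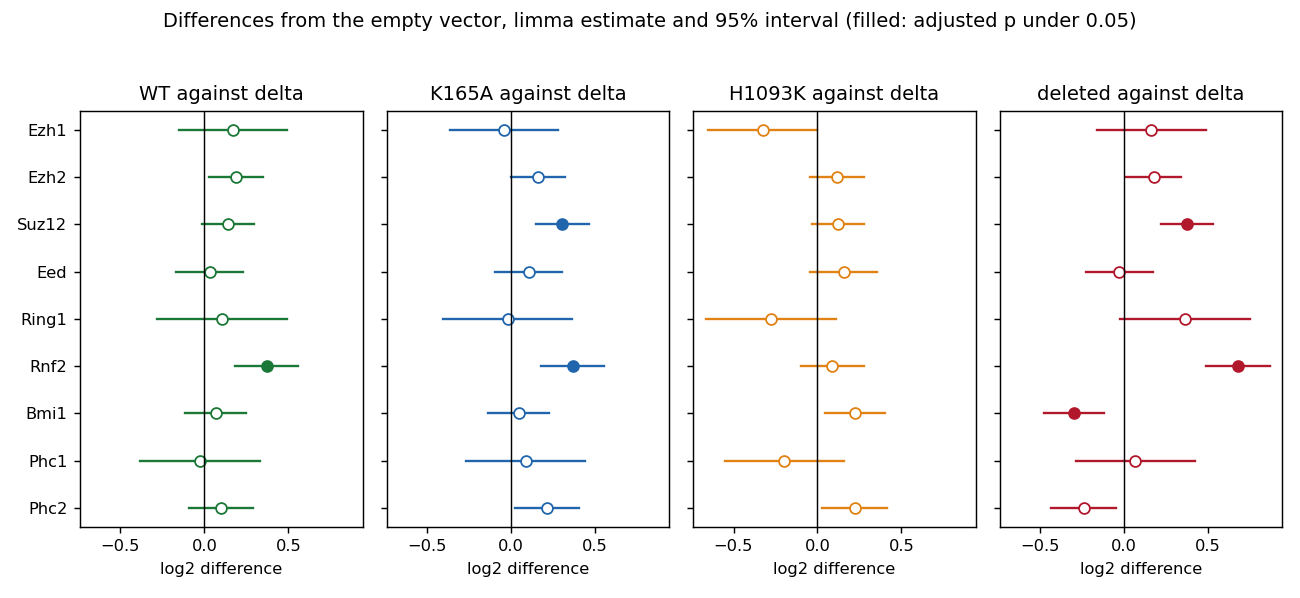
Log2 difference from delta (x axis, log2(signal + 16) scale) for the brightest probe set of each gene, in WT, K165A, H1093K and the arrays labelled deleted; points are limma estimates, bars their 95% intervals, and filled points passed an adjusted p of 0.05. Rnf2 is filled in WT, K165A and deleted, Suz12 in K165A and deleted, and Bmi1 in deleted.

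Ring1, the paralog of Rnf2 in PRC1, was dim and did not pass in any of the 9 comparisons as fitted here. With the replicate block, deleted against delta passed (limma adjusted p = 0.0477). It read 229 and 294 in delta, 271 and 291 in WT, 239 and 274 in K165A, 179 and 250 in H1093K, and 340 and 337 on the arrays labelled deleted. The deleted arrays were above all others, the H1093K arrays were below those of WT, and the other groups overlapped within 179 to 294. The smallest p was for H1093K against WT, at -0.38 ± 0.17 (95% interval -0.77 to 0.00, adjusted p = 0.242). Against delta the difference was 0.11 in WT (-0.28 to 0.49), so a rise of the size seen in Rnf2 lies inside the interval of Ring1.

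Bmi1, the activating partner of the ligase, was lower in the arrays labelled deleted and did not pass elsewhere. Its brighter probe set (1417493_at) read 1023 and 1016 in delta, 1009 and 1133 in WT, 1014.2 and 1092.6 in K165A, 1209 and 1178 in H1093K, and 846 and 807 on the arrays labelled deleted. The deleted arrays were below all others, and the H1093K arrays were above all others. The deleted arrays differed from delta by -0.30 ± 0.08 (adjusted p = 0.0176), a 1.23-fold fall, and from WT by -0.37 ± 0.08 (0.00676). The other probe set (1448733_at), at 546 and 516 on the arrays labelled deleted and 638 to 751 on the other 8, fell by 0.38 ± 0.10 on the log2 scale against delta (adjusted p = 0.0191). The first fall against delta ended without delta replicate 1 (0.0688), delta replicate 2 (0.0634) or deleted replicate 2 (0.102; range over 20 alternatives 0.00625 to 0.102). At the other probe set the call against delta ended without delta replicate 1 (0.107), deleted replicate 1 (0.0517) or deleted replicate 2 (0.103; range 0.00784 to 0.107). Against WT, the call of 1417493_at ended without WT replicate 2 (0.0581) or deleted replicate 2 (0.0504). The H1093K difference from delta, 0.22 ± 0.08 at 1417493_at (adjusted p = 0.299) and 0.07 ± 0.10 at 1448733_at (0.869), did not pass at either probe set.

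Phc1 and Phc2 are polyhomeotic subunits of PRC1, which polymerise through a shared domain. Phc1 read 553 and 634 in delta, 584 and 578 in WT, 581 and 682 in K165A, 425 and 621 in H1093K, and 602 and 640 on the arrays labelled deleted. The first H1093K array was the lowest of the 10, the deleted arrays were above those of WT, and no comparison of Phc1 passed (smallest p for K165A against H1093K, 0.29 ± 0.16, adjusted p = 0.368).

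Phc2 was lower in the arrays labelled deleted than in WT. Its brighter probe set (1437239_x_at) read 2053 and 1926 in delta, 2138 and 2120 in WT, 2464 and 2172 in K165A, 2334 and 2305 in H1093K, and 1777 and 1590 on the arrays labelled deleted. The suffix of that name marks probes that can also bind other transcripts. The other probe set (1416048_at) read 1206 and 1376 in delta, 1314 and 1594 in WT, 1431 and 1643 in K165A, 1557 and 1658 in H1093K, and 877 and 1155 on the arrays labelled deleted. On both, the deleted arrays were below all others. Against WT they differed by -0.34 ± 0.09 (adjusted p = 0.0137) and -0.52 ± 0.14 (0.0193), falls of 1.26-fold and 1.43-fold. The first call ended without WT replicate 1 (0.0636), WT replicate 2 (0.0531) or deleted replicate 2 (0.11; range over 20 alternatives 0.0019 to 0.11), and the other without WT replicate 2 (0.137) or deleted replicate 1 (0.145; range 2.63e-04 to 0.145). Against delta the differences were -0.24 ± 0.09 (0.0557) and -0.35 ± 0.14 (0.0837), which did not pass.

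Suz12, the subunit that holds PRC2 together, was higher in K165A and in the arrays labelled deleted than in delta. Its brightest probe set (1420021_s_at, whose suffix marks probes shared between transcripts) read 1094 and 1052 in delta, 1210 and 1162 in WT, 1376 and 1287 in K165A, 1168 and 1170 in H1093K, and 1397 and 1396 on the arrays labelled deleted. The delta arrays were the lowest, the deleted arrays the highest with K165A next, and WT and H1093K overlapped. Against delta the difference was 0.31 ± 0.07 in K165A, a 1.24-fold rise (adjusted p = 0.0197), and 0.38 ± 0.07 in the arrays labelled deleted (0.00242, passed under all 20 alternatives). In WT it was 0.14 (95% interval -0.01 to 0.30, 0.235) and in H1093K 0.12 (-0.03 to 0.28, 0.555), neither of which passed. K165A lay 0.16 above WT (0.01 to 0.32, adjusted p = 1), which did not pass, so a difference between these forms was not established. The K165A call ended without delta replicate 1 (0.0565), delta replicate 2 (0.112) or K165A replicate 1 (0.112), with only the arrays compared (0.11), and with the probe sets of the gene averaged (0.161; range over 21 alternatives 0.005 to 0.161).

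The other 3 tested Suz12 probe sets did not pass in K165A, at 0.21 ± 0.13 (1427253_s_at), 0.29 ± 0.14 (1452364_at) and 0.19 ± 0.19 (1449661_at). In the arrays labelled deleted they lay above delta by 0.34 ± 0.13 (adjusted p = 0.0622), 0.54 ± 0.14 (0.0145) and 0.46 ± 0.19 (0.0906), so 1 of the 3 passed. The first passed with only the arrays compared (0.0435), quantile normalization (0.0444) or the replicate block (0.00393), and the last with the replicate block (0.0378). The probe set that passed as fitted, 1452364_at, read 518 and 634 in delta, 763 and 713 in WT, 635 and 779 in K165A, 675 and 743 in H1093K, and 756 and 933 on the arrays labelled deleted. The delta arrays were the lowest, and the deleted arrays were above those of H1093K while overlapping WT and K165A. Its call ended without delta replicate 1 (0.0984) or deleted replicate 2 (0.114; range over 20 alternatives 0.00126 to 0.114). Against WT, the deleted arrays lay 0.23 ± 0.07 higher at 1420021_s_at (adjusted p = 0.0279), a call that ended without WT replicate 1 (0.0659), WT replicate 2 (0.128), deleted replicate 1 (0.108) or deleted replicate 2 (0.106), and with 4 other alternatives (range over 20 alternatives 0.00951 to 0.183). The 2 dim Suz12 probe sets read 8.49 to 112.

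**Figure D3:**
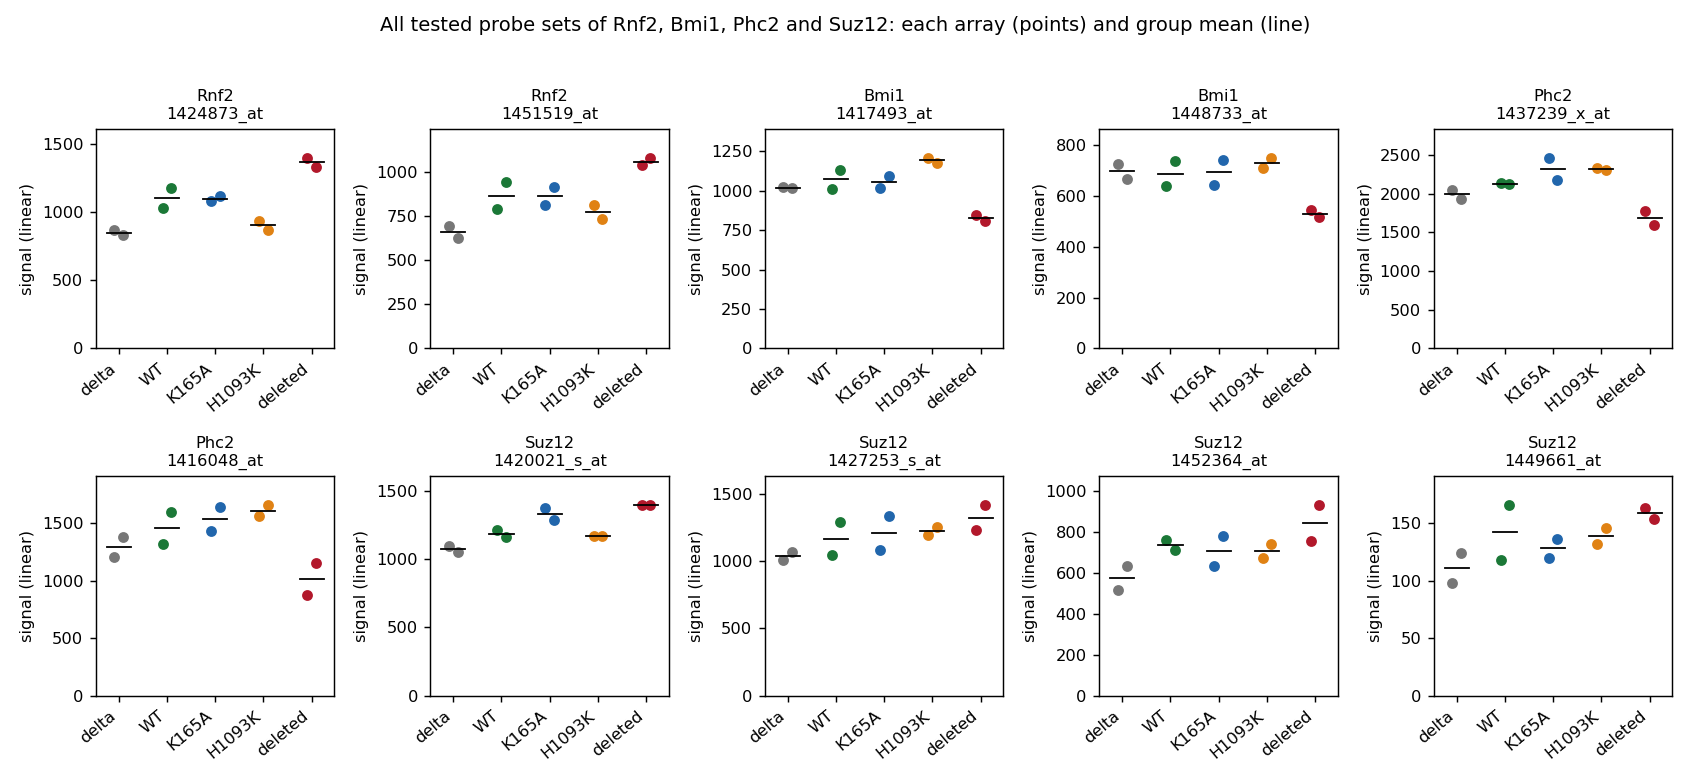
Signal on a linear scale (y axis, from 0) of every tested probe set of Rnf2, Bmi1, Phc2 and Suz12 by group (x axis); points are single arrays and lines are group means. The deleted arrays are highest at both Rnf2 probe sets and lowest at both probe sets of Bmi1 and of Phc2.

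Ezh2, the main H3 lysine 27 methyltransferase of dividing cells, was bright and varied little. It read 1591 and 1562 in delta, 1719 and 1879 in WT, 1828 and 1701 in K165A, 1715 and 1708 in H1093K, and 1782 and 1786 on the arrays labelled deleted. The delta arrays were below the other 8, and the H1093K arrays were below those of WT and deleted. Its difference from delta was 0.19 for WT (95% interval 0.03 to 0.35, adjusted p = 0.135), 0.16 for K165A (0.00 to 0.32, 0.205), 0.12 for H1093K (-0.04 to 0.28, 0.592) and 0.18 for the arrays labelled deleted (0.01 to 0.34, 0.0898). None of these passed, and no interval reached above 0.35.

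Ezh1, the relative of Ezh2 that predominates in resting cells, had a pair of dim probe sets that did not move together. The brighter (1449023_a_at) read 267 and 214 in delta, 285 and 257 in WT, 213 and 251 in K165A, 191 and 184 in H1093K, and 270 and 268 on the arrays labelled deleted. The H1093K arrays were below the other 8. Against WT they differed by -0.50 ± 0.14 (95% interval -0.82 to -0.17), which did not pass (adjusted p = 0.0694; 0.0376 to 0.884 over 20 alternatives). The other probe set (1418290_a_at) read 87.8 and 105 in WT and 120 and 137 in H1093K, the opposite order, at 0.37 ± 0.21 (adjusted p = 0.376). Over the 10 arrays these probe sets correlated with r = -0.224, so no direction is given for the gene.

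Eed, the subunit that binds methylated H3 lysine 27, read 998 and 928 in delta, 923 and 1051 in WT, 985 and 1092 in K165A, 1085 and 1062 in H1093K, and 922 and 964 on the arrays labelled deleted. All groups but H1093K overlapped delta, and no comparison passed. The smallest p was for H1093K against delta, at 0.16 ± 0.09 (95% interval -0.04 to 0.35, adjusted p = 0.558). Its dim probe set read 17.2 to 47.3.

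Direct comparisons among the 3 introduced forms of G9a passed for none of the 16 Polycomb probe sets as fitted here, and for Rnf2 and Ezh1 under some of the alternatives. Between K165A and WT, limma called 0 of 16, and 0% of all probe sets (1 of 16 and 429 of 13575 at an unadjusted p under 0.05). The log2 differences of the 16 ran from -0.21 to 0.37. Between H1093K and WT it called 0 of 16, beside 8.03% of all probe sets, with differences from -0.50 to 0.37. At an unadjusted p under 0.05 it was 2 of 16, beside 20.9% of all probe sets. Between K165A and H1093K it called 0 of 16, beside 7.42% (unadjusted, 2 of 16 beside 19.8%), with differences from -0.18 to 0.29. Against WT, the arrays labelled deleted passed at 6 of 16, 2 higher and 4 lower, beside 15.4% higher and 17% lower of all probe sets (32.4% in all). By group mean, the order of Rnf2 was deleted, WT, K165A, H1093K and delta, with a 1.61-fold span, of which WT and K165A did not differ beyond their spread (-0.00, 95% interval -0.19 to 0.18), nor did H1093K and delta.

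Around these genes stand the other subunits and opponents of the Polycomb complexes. They were read from lists chosen with earlier results of these data known, by the brightest tested probe set of each gene. Among 7741 tested genes, 13.2% passed for WT against delta, 12.7% did for K165A, 0.969% for H1093K and 35.6% for the arrays labelled deleted. Of 7 accessory PRC2 subunits and histone binders, 0 passed by limma in any of the 4 comparisons with delta (at most 2 at an unadjusted p under 0.05), and in WT their median difference was 0.10. Of 14 other PRC1 subunits, 1 rose in WT and in K165A, 0 passed in H1093K (0 also at an unadjusted p under 0.05), and 6 rose in the arrays labelled deleted, where the median was 0.33 against -0.01 for all genes. That gene in WT and K165A was Hdac2, a deacetylase that also serves other repressor complexes. It read 1112 and 1013 in delta, 1368 and 1464 in WT, 1277 and 1439 in K165A, 1189 and 1229 in H1093K, and 1097 and 1113 on the arrays labelled deleted. The WT and K165A arrays were above all others. Hdac2 rose 1.33-fold in WT (adjusted p = 0.0122) and 1.27-fold in K165A (0.0262), calls that ended without delta replicate 2 (0.0854 and 0.156), WT replicate 2 (0.0867) or K165A replicate 2 (0.15), and in K165A also with only the arrays compared (0.109) or no intensity trend (0.0561). In the arrays labelled deleted, Kdm2b, which brings a PRC1 variant to CpG islands, rose 1.51-fold (0.00193) and Yaf2, which binds the ligase, 1.54-fold (0.00271), and both calls held under every alternative run.

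The enzymes that remove the Polycomb marks, and the trithorax proteins that oppose Polycomb, are read against the same shares of all genes. These were 13.2% in WT, 12.7% in K165A and 0.969% in H1093K. For deleted against delta the share was 35.6%. Of 8 H2A deubiquitinase subunits and H3 lysine 27 demethylases, 0 passed in WT, K165A or H1093K by limma (0, 1 and 2 at an unadjusted p under 0.05), and 3 rose and 2 fell in the arrays labelled deleted. The deubiquitinase Bap1 rose 1.31-fold there (adjusted p = 0.00924, lost without deleted replicate 2 at 0.0654), and Usp16 fell 1.39-fold (0.00249). Of 13 trithorax genes, 2 rose and 1 fell in WT, 1 rose in K165A, 0 passed in H1093K (2 unadjusted) and 2 rose in the arrays labelled deleted. Smarca2, an ATPase of the SWI/SNF remodelling complexes, had the largest difference of the 13 in WT. It read 242 and 188 in delta, 349 and 433 in WT, 365 and 426 in K165A, 169 and 171 in H1093K, and 608 and 515 on the arrays labelled deleted. The WT, K165A and deleted arrays of Smarca2 lay above those of delta and H1093K, as at Rnf2 (1424873_at). Its H1093K arrays lay below delta, whereas those of Rnf2 lay above. The rise was 1.76-fold in WT (0.0096), 1.79-fold in K165A (0.00859) and 2.51-fold in the arrays labelled deleted (1.66e-04), and the H1093K arrays differed from WT by -1.12 ± 0.16 at Smarca2 (0.00178). The first pair of calls ended without delta replicate 2 (0.0689 and 0.0635), WT replicate 2 (0.0804) or K165A replicate 2 (0.0644).

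Of 40 textbook Polycomb targets, 39 were on the array under these symbols and 15 passed the filter, which leaves out silent targets. Among the 15, 3 rose and 0 fell in WT, 5 rose and 0 fell in K165A, and 0 passed in H1093K (2 unadjusted). In the arrays labelled deleted 5 rose and 7 fell. Among all tested genes, 13.2%, 12.7%, 0.969% and 35.6% passed in these comparisons. The list medians were 0.19, 0.38, 0.05 and -0.25, and those of all genes were each -0.01. Lhx2, a developmental transcription factor, read 180 and 178 in delta, 315 and 307 in WT, 288 and 271 in K165A, 254 and 216 in H1093K, and 93.9 and 79.8 on the arrays labelled deleted. WT and K165A were highest and the deleted arrays lowest, without overlap. Lhx2 rose 1.68-fold in WT (adjusted p = 0.00743, lost without WT replicate 1 at 0.0559) and 1.52-fold in K165A (0.0217, lost without delta replicate 1 at 0.081, delta replicate 2 at 0.0982, K165A replicate 1 at 0.108 or K165A replicate 2 at 0.0698). Of the growth inhibitors of the Cdkn2 locus, Cdkn2a did not pass in any comparison with delta. Its differences were 0.19 for WT, 0.26 for K165A, 0.05 for H1093K and -0.25 for the arrays labelled deleted. Cdkn2b lay 0.37 above delta in the arrays labelled deleted, which passed (1537 and 1664 against 1199 and 1266). Cdkn2b rose 1.20-fold in K165A (0.041), a call lost when any of the 10 arrays was left out (0.0535 to 0.179).

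On the arrays labelled deleted, the Hox genes of the target list moved either way against delta. Hoxa5 and Hoxd8 rose (0.70 and 0.90 on the log2 scale), Hoxa9, Hoxa10, Hoxd9 (-0.51), Hoxd10 (-1.45) and Hoxd13 fell, and Hoxa13 (-0.02) did not pass. Hoxa9 read 383 and 346 there against 1396 to 1717 on the other 8 arrays, a fall of 4.35-fold against delta (adjusted p = 1.32e-07). Hoxa10 fell 4.04-fold (2.76e-05) and Hoxd13 2.41-fold (2.23e-05). The endoderm and heart factor Gata6 rose 4.16-fold, from 381 and 501 in delta to 1701 and 2055 (7.32e-06). The calls of Hoxa9, Hoxa10, Hoxd13 and Gata6 held under every alternative run. The point farthest to the right in the plot of the lists is Igf2, at 4.455 on the log2 scale, a growth factor named here after its value was seen. Rnf2, Bmi1 and Suz12 differed on the same arrays by at most 0.68 on that scale, and whether these arrays come from cells of another origin cannot be told apart from the label they carry.

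**Figure D4:**
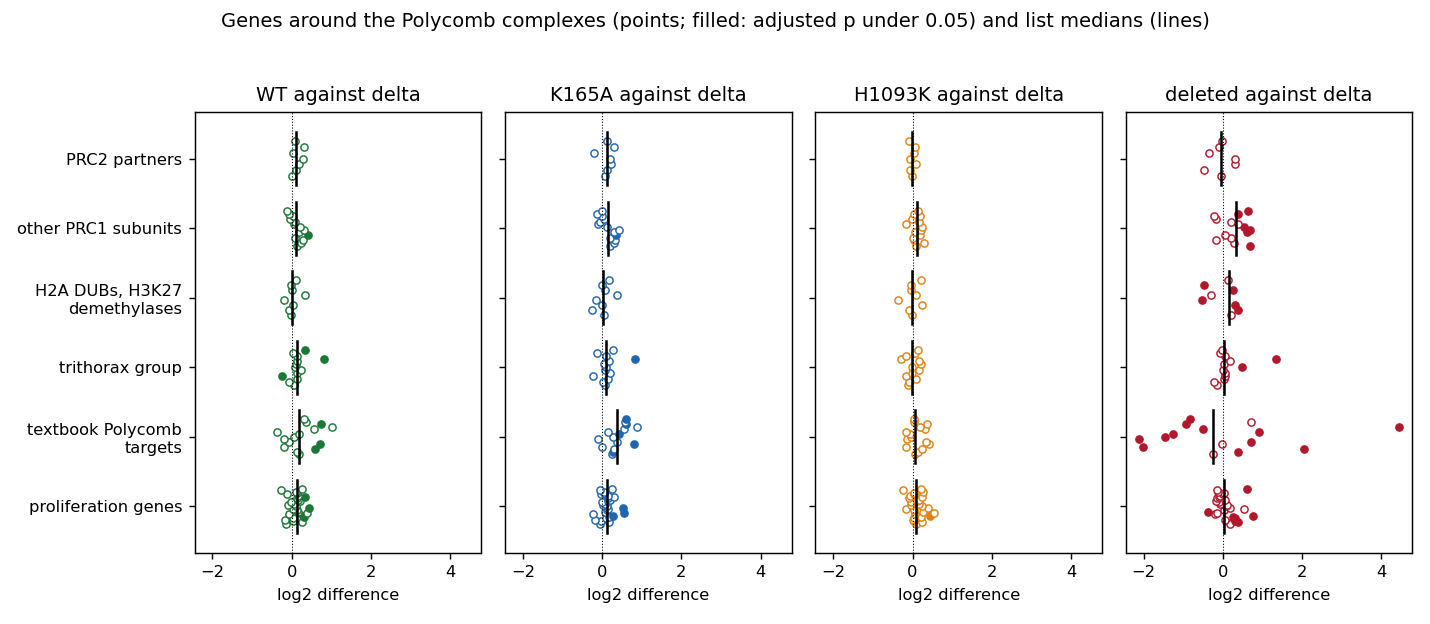
Log2 difference from delta (x axis, log2(signal + 16) scale) of each tested gene in 6 lists (rows), for WT, K165A, H1093K and the arrays labelled deleted; points are genes, filled where the adjusted p was under 0.05, and vertical lines are list medians. The targets spread most widely on the arrays labelled deleted, where 5 rose and 7 fell. The median of the other PRC1 subunits was 0.33 there, and that of the targets was 0.38 in K165A. Smarca2, of the trithorax list, lay at 0.82 in WT, 0.84 in K165A and 1.33 on the arrays labelled deleted.

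Proliferation genes are given beside these results because PRC2 genes are more active in dividing cells. Of 27 tested, 4 rose and 0 fell in WT, 3 rose in K165A, 1 rose in H1093K, and 6 rose and 1 fell in the arrays labelled deleted. Among all tested genes, 13.2%, 12.7%, 0.969% and 35.6% passed in these comparisons. At an unadjusted p under 0.05 (limma) it was 9, 7, 10 and 9 of the 27, beside 26%, 24.9%, 11.8% and 43.2% of all probe sets. The shift was thus not confined to WT and K165A. The list medians were 0.13, 0.13, 0.08 and 0.02, and those of all genes were each -0.01. The mitotic kinesin Kif11 read 622 and 580 in delta, 805 and 842 in WT, 867 and 868 in K165A, 790 and 781 in H1093K, and 704 and 656 on the arrays labelled deleted. It rose 1.36-fold in WT (adjusted p = 0.0055) and 1.43-fold in K165A (0.00237). The part of such small shifts in the Rnf2 and Suz12 values was not tested.

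By Pearson correlation over the 10 arrays on the log2 scale, the genes whose pattern was most like that of Rnf2 were Stag2 (r = 0.985), Ahr (0.979) and Mxi1 (0.979), out of 7740. For Bmi1 they were Herc1 (0.977), Rin2 (0.966) and Ddx39a (0.955), and for Phc2 Ppp2r5c (0.977), Ifrd1 (0.967) and Slit2 (0.967). All points share the same arrays, of which the 2 labelled deleted lie at an end for each of the 3 genes, so these values describe likeness and carry no test.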

How the data were processed

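Total RNA from 10 samples was hybridised to Affymetrix arrays. Each deposited value is a probe set's signal intensity, not logged, which the authors computed with GCOS 1.4, per the submitters' processing notes. The sources used here do not give its background and scaling options. The 2% trimmed mean lay between 500.1 and 500.2 on every array, and the values were used without further scaling. Groups came from the sample titles. Of 22690 probe sets, 64 controls were left out. Symbols came from the platform annotation, 20380 probe sets having 1 gene.

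Signals were analysed as log2(signal + 16), which understates the change of dim probe sets. Probe sets with a mean log2 value under the 40th percentile were left out, leaving 13575. In R 4.3.3, limma 3.58.1 (lmFit, eBayes with an intensity trend) fitted 1 mean per group to all 10 arrays (5 residual and 4.73 prior degrees of freedom), with 9 comparisons and F tests over 4 and 5 groups, each judged at a Benjamini-Hochberg adjusted p of 0.05. The fit was tested on simulated data. An exact permutation test of 2 arrays against 2 cannot go below p = 0.333, so none was run. Alternatives were the pseudocount, filter, scaling, arrays in the fit, variance trend, replicate block, each array left out, and the mean of a gene's probe sets. Where an array is left out, the lone array of its group is assumed to vary like the others.

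The members and gene lists were chosen with earlier results of these data known. The members were all named, with every array's signal for each gene's brightest probe set. From each list, up to 4 genes of smallest p could be named, and for the 3 members of smallest F-test p the 3 genes of highest correlation. Promoter sequences are from RefSeq (GRCm38.p6), and all 9 members matched. The sources used here give no build for the files.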

Additional observations from a re-analysis of the deposited data

How the results depend on the processing

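No difference changed sign: of 532 refits of the 26 Polycomb differences examined, 444 kept their side of the threshold, 84 lost a call and 4 gained one, and of 969 refits of 50 differences in the other named genes 782 kept and 187 lost it. Most of the Polycomb differences refitted were chosen because they passed, or had the smallest p of a gene with no call. Leaving out an array of a group outside a comparison does not change its difference. A kept sign was thus likely in advance. Of the 16 Polycomb probe sets, WT against delta passed at 1 with no filter, 1 without both deleted arrays, 1 with no intensity trend and 0 with only the arrays compared, in place of 2. K165A against delta passed at 0 with only the arrays compared. H1093K against WT passed at 1 (Rnf2) after quantile normalization. For WT and K165A against delta and H1093K the count was 1, in place of 3, with no filter, only the arrays compared, without both deleted arrays, or no intensity trend. Among the 4 reconstituted groups it was 0 with no intensity trend. Leaving out each array in turn gave 0 to 2 for WT against delta, 0 to 3 for K165A against delta, 0 to 0 for H1093K against delta and for each comparison among the 3 G9a forms, 3 to 8 for deleted against delta, 1 to 6 for deleted against WT, 1 to 2 for WT and K165A against delta and H1093K, 0 to 1 among the 4 groups and 4 to 7 among the 5. With the replicate block, 5 passed in K165A against delta, 1 in H1093K against delta, 2 in H1093K against WT (Ezh1 at an adjusted p of 0.0376 and Rnf2 at 0.034), 1 in K165A against H1093K (Rnf2 at 0.0379), 11 in deleted against delta and 4 among the 4 groups. The block also added Suz12 (1452364_at, limma adjusted p = 0.0275) in WT against delta and Rnf2 (1451519_at, 0.0368) in deleted against WT. The counts in this paragraph stand without the share of all probe sets in the same fits. They are thus no result about these genes as a list. Same-numbered arrays deviated together (correlations of 0.23 to 0.53 over 10 pairs of groups), but the labels do not say that the number marks a shared batch. Median centring and quantile normalization moved the median of all probe sets by at most 0.0743 and 0.0242. With 2 arrays a group, differences as small as those of most Polycomb genes here were not detectable reliably, and the 6 dim probe sets, under the filter at a signal of about 96.7, were not tested.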
